A study of Mus musculus with 12 samples.

Results

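The exon events described here are skipped exon (SE) events that appear in the authors' table for refed liver and not, with the same coordinates, in their table for fasted liver. An event is defined by the chromosome, the strand, both ends of the skipped exon and both ends of each flanking exon, and it had to carry at least 10 inclusion plus skipping counts in each of the 6 refed libraries. Of the 75694 events in the refed table, 65231 passed the count minimum, and 34706 of these, in 7175 genes, were listed only there. The other 30525 were listed in both tables and serve as the comparison. The listing and the total counts chose the members, so neither is a result. The rule did not use how the counts divide between inclusion and skipping in the 2 genotypes. The listing is not blind to genotype, because a junction that is not annotated can enter through the reads of 1 genotype. Skipping reads were seen in Lpin1-/- libraries alone in 10189 members. Before the minimum, 41278 events were listed only in the refed table. The 259 of them whose lowest library held exactly 10 counts had a median inclusion of 73.7%, and the 250 just outside the minimum, with 9 counts, had a median of 91.0%.

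The libraries are liver RNA-Seq from male BALB/cByJ mice aged 2 to 8 months, sequenced as 69-base read pairs. Lpin1-/- mice carry the fatty liver dystrophy (fld) mutation in every cell of the body, and the controls are wild type. There were 3 libraries in each of 4 groups: wild-type and Lpin1-/- mice fasted for 16 hours, and wild-type and Lpin1-/- mice refed with chow for 5 hours after such a fast. The comparison of refed genotypes is the question asked of the members, and the fasted libraries are used as a set of samples that this comparison did not include.

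Lipin 1 is a phosphatidate phosphatase that makes diacylglycerol for triglyceride and phospholipid synthesis, and it also acts in the nucleus as a transcriptional coactivator. An SE event compares reads that join an exon to its neighbors (inclusion) with reads that join the neighbors directly (skipping). The program rMATS builds events from annotated exons and from junctions seen in the reads of the libraries given to it, so a table can hold exons and junctions that no annotation lists. Inclusion is given here as the percentage of the included form after each count is divided by the effective length of its form.

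Lpin1 itself had no member event. Its RPKM was 2.92, 0.784 and 2.76 in the refed wild-type libraries and 0.00573, 0.0238 and 0.00962 in the Lpin1-/- libraries. The groups did not overlap, although the limma test over all 12 libraries did not call the difference (log2 change -1.55 ± 0.72 SE, adjusted p = 0.231). Hepatocyte markers dominated every library, with a summed RPKM of 34301 to 68323 in wild type and 62173 to 68575 in Lpin1-/-. The 7 Kupffer cell and macrophage markers summed to 41.8 to 320 RPKM in wild type and 36.7 to 88.9 in Lpin1-/-, the 5 cholangiocyte markers to 31.6 to 103 and 19.2 to 27.8, the 6 T and B cell markers to 0.769 to 10.6 and 0.886 to 1.57, and the 4 neutrophil markers to 4.41 to 91.7 and 28.1 to 56.8. Refed wild-type replicate 2 stood apart in acute-phase genes, with a Saa1 (serum amyloid A) RPKM of 17751 against 863 and 175 in the other wild-type libraries. The part of these differences in the splicing results was not tested.

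To show what a skipping junction of a member joins, 8 coding exons are printed from GENCODE M21 transcripts (GRCm38). They are the exons of called members, described later, that lie with both neighbors in 1 protein-coding transcript and whose skipping junctions had the most reads, 1 per gene. Lower case is the exon, and capitals are the last 12 bases of the exon before it and the first 12 bases of the exon after it, so that reading the capitals alone gives the skipping junction.
Cyp2d9, chr15:82454038-82454190, plus strand: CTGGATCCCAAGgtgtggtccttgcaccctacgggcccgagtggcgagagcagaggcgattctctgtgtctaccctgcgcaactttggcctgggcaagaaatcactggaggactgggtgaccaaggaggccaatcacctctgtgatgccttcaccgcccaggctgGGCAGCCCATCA
Apoa1, chr9:46229116-46229269, plus strand: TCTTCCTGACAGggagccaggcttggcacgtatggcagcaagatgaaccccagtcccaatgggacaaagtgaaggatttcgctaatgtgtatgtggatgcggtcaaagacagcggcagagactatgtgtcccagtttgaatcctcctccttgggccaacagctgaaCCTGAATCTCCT
Pnpla2, chr7:141458592-141458759, plus strand: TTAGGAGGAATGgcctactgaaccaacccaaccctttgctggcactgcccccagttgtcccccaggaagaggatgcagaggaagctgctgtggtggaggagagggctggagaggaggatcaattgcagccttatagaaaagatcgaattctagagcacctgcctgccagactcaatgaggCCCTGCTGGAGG
Atp5g3, chr2:73909184-73909377, minus strand: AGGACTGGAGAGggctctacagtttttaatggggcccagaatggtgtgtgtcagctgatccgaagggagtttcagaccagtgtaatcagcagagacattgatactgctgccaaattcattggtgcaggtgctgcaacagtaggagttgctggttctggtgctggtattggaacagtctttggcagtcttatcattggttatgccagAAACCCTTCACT
Csad, chr15:102178781-102178832, minus strand: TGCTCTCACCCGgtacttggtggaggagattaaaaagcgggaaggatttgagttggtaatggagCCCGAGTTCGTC
Mdh2, chr5:135789626-135789777, plus strand: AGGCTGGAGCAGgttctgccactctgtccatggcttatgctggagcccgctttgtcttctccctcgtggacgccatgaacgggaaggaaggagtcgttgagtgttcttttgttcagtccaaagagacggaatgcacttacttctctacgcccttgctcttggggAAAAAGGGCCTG
Hagh, chr17:24863677-24863756, plus strand: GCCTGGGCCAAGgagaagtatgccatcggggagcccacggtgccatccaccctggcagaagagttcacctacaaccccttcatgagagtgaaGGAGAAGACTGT
Ces1f, chr8:93275242-93275446, minus strand: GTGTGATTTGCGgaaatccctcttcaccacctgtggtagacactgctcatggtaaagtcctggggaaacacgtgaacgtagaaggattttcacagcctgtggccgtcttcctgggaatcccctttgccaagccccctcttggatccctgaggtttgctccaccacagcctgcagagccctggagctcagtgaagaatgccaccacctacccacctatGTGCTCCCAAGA

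Leaving an exon out keeps the reading frame only when its length is a multiple of 3. That held for the Cyp2d9 exon of 153 bases and the Pnpla2 exon of 168 bases, whose transcripts would lose codons and go from 504 to 453 and from 486 to 430 codons. The Apoa1 exon of 154 bases does not keep the frame, and the joined transcript meets a stop codon that ends 5 bases after the junction, which leaves 15 of 264 codons. The Atp5g3 exon of 194 bases leaves 58 of 141 codons in the same way, and the Mdh2 exon of 152 bases leaves 260 of 338. Of the 31 genes with such an exon, 17 had an exon whose length was not a multiple of 3. Over all members that are coding exons, 43.3% had a length that was a multiple of 3, against 44.5% of the coding exons listed in both tables.

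A lower share of members than of the events listed in both tables was annotated. The skipped exon was an annotated GENCODE M21 exon in 37.9% of members and in 61.1% of shared events, and a coding exon in 31.6% and 46.8%. In 35.2% of members only 1 end of the exon was annotated, against 19.3% of shared events, and in 17.6% against 15.4% the exon overlapped no annotated exon. The remaining members lay inside an annotated exon (5.24%) or overlapped one (3.99%) without sharing an end. All 3 junctions of the event (both inclusion junctions and the skipping junction) were annotated in 1669 members (4.81%) and in 6318 shared events (20.7%). Because the listing chose the members, these shares are a description and carry no test. The median exon length was 117 bases in members and 113 bases in shared events.

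**Figure D1:**
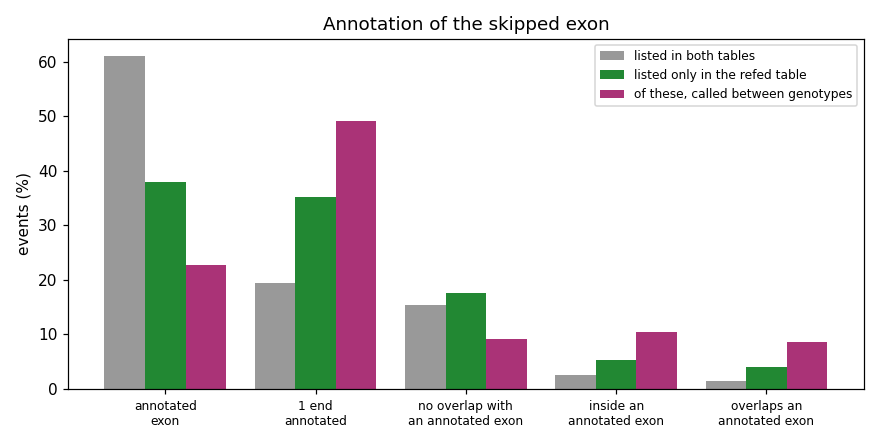
Share of events (%) by the annotation of the skipped exon, for events listed in both tables (gray), events listed only in the refed table (green) and the called events among the latter (purple). Annotated exons made up 61.1%, 37.9% and 22.7% of the 3 sets, and exons with 1 annotated end 19.3%, 35.2% and 49.1%.

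A coordinate listed only in refed liver was often a variant of something that the fasted table also held. The gene was listed in the fasted table for 34179 members (98.5%), the skipping junction for 20901 (60.2%) and the skipped exon, with other flanking ends, for 13312 (38.4%). In 8265 members (23.8%) all 3 junctions were those of a fasted event and only the outer end of a flanking exon differed. Neither the exon nor the skipping junction was listed in fasted liver for 10296 members (29.7%). The 527 members in genes with no fasted event came from 281 genes, and the 260 of these with an RPKM value had a median RPKM of 6.18 over the refed and 4.75 over the fasted libraries. The authors' table of fasted against refed wild-type liver, which holds 2273 events they selected, contained 381 members, and 358 of these had reads of both forms in fasted wild-type liver.

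Some highly expressed genes held many members. The median RPKM of host genes was 11.6 for members and 11.1 for events listed in both tables. Alb (albumin) held 379 members on 57 skipping junctions, Trf (transferrin) 152 on 26, C3 (complement component) 123 on 33, Scp2 (sterol carrier protein) 109 on 41 and Mug1 (murinoglobulin, a protease inhibitor) 94 on 32. Genes with 20 or more members numbered 203 and held 20.8% of all members, whereas 1908 genes held a lone member and the median was 3. Many members of a gene reuse the same junction reads, so members are not replicates of each other.

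The rarer form of a member was usually close to the limit of detection. Its mean was under 1 count per library in 18164 members (52.3%) and in 33.6% of shared events, and it reached 5 counts in 7867 members (22.7%) and in 33.7% of shared events. The mean inclusion was 99% or more in 53.6% of members, 10% or less in 23.1%, and between 10% and 90% in 7.51%. Skipping reads came from a lone library in 36.5% of members and from all 6 libraries in 36.0%.

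Skipping reads were found in more members in Lpin1-/- than in wild-type libraries. They were present in 50.9%, 52.7% and 51.8% of members in the wild-type libraries and in 64.0%, 57.6% and 58.4% in the Lpin1-/- libraries, so the groups did not overlap (51.8 ± 0.938 against 60.01 ± 3.49, SD, n = 3 each). A skipping junction that is not annotated can be listed through these same reads, and it was annotated in 35.0% of members. The shares are therefore a description and carry no test. Skipping reads in Lpin1-/- libraries alone were seen in 10189 members (29.4%) and in wild-type libraries alone in 5441 (15.7%). The events listed in both tables had the same order, with 61.3% to 63.8% in wild type and 69.3% to 76.1% in Lpin1-/-. Inclusion counts summed over members came to 246 M, 301 M and 360 M in wild type and to 401 M, 397 M and 379 M in Lpin1-/- (M for mega), with reads shared between events counted more than once. The median total count of a member was 374, 402 and 428 in wild type and 473, 453 and 395 in Lpin1-/-, where the groups overlap. The libraries nearest in summed inclusion counts, wild type at 360 M and Lpin1-/- at 379 M, had skipping reads in 51.8% and 58.4% of members. The part of depth in the difference was not tested.

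The genotype comparison in refed liver called 326 of the 34706 members at an adjusted p under 0.05 in limma, adjusted over all 65231 events. The log2 ratio of inclusion to skipping counts was lower in Lpin1-/- liver in 293 of them and higher in 33, and fell and rose are used of called members in this sense. In wild-type libraries 149 of the 293 had no skipping read and 15 of the 33 no inclusion read. Junctions that are not annotated can be listed through the reads of 1 genotype, so the split of directions is not independent of the listing. The mean inclusion percentage moved in the same direction as the log2 ratio in 325 of the 326. The exception was Lepr, the leptin receptor, with 40, 15 and 12 inclusion reads in wild type, 1247, 1666 and 989 in Lpin1-/- and a lone skipping read, so that mean inclusion was 100% and 99.92% while the mean RPKM went from 0.484 to 26.6 (adjusted p = 0.00119). In 5 called members, in Acot8, Deaf1, Lepr and Idi1, which are named for this after their values were seen, the rarer form averaged under 1 count per library. The fitted log2 ratios of these 5 depend on the 0.5 added to each count. The share called was 0.939%, against 0.989% of all events and 1.05% of the events listed in both tables, a share near that of the whole table. Over all events 0.84% were called lower and 0.149% higher. At an unadjusted p under 0.05 there were 4561 members (13.1%). The groups did not overlap in inclusion in 12.3% of members and in 14.2% of all events. These calls were sensitive to the number of libraries, since leaving out any library left 0 called members in limma, or 12 when Lpin1-/- replicate 2 was left out, with 3704 to 4446 members at an unadjusted p under 0.05. All 326 kept their direction each time. Weighting libraries by the precision of their counts called 700 members, among them 169 of the 326. Replicate here means the position in the authors' list of counts, which carries no sample name.

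**Figure D2:**
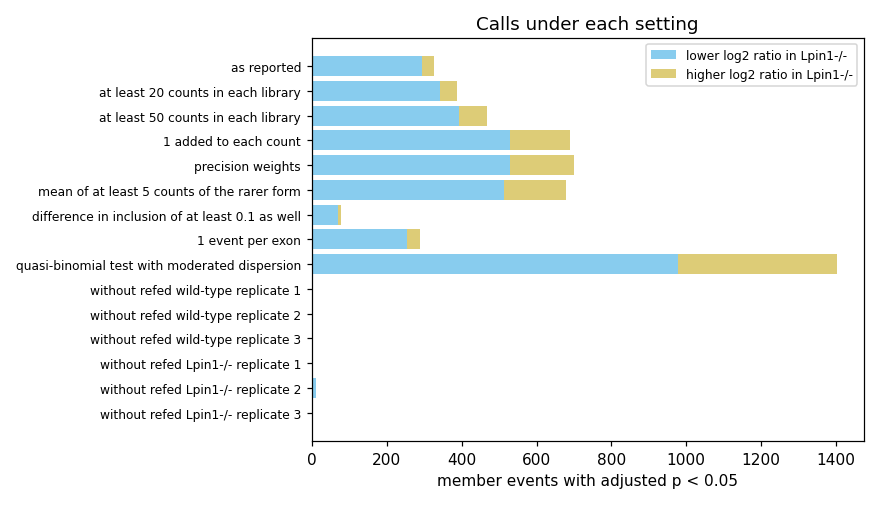
Number of members with an adjusted p under 0.05, split by direction, in the fit as reported and under each other setting. The count was 326 as reported, rose to 1403 with a quasi-binomial test and was 0 to 12 with a library left out.

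The called members lay in 146 genes and on 157 skipping junctions. Of the called members, 22.7% were annotated exons, and 49.1% had 1 annotated end. The skipping junction was not annotated in 250 of the 293 members with a lower ratio, and 149 of the 293 had no skipping read in any wild-type library. The exon was annotated in 70 of the 293. The 33 members with a higher ratio had an annotated skipping junction in 27 and an exon that is not annotated in 29. Over all members the skipping junction was annotated in 35.0% and the exon in 37.9%. The difference in inclusion had a median size of 2.71 percentage points and reached 10 points in 79 of the 326.

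The largest rises in inclusion among called members with at least 5 counts of the rarer form were in exons that wild-type liver hardly used. An event that the table assigns to Ahcy, the gene of an enzyme that clears S-adenosylhomocysteine, at chr2:155074145-155074281 overlapped no annotated exon and was included at 11.1%, 4.24% and 14.2% in wild type and at 61.0%, 63.8% and 61.5% in Lpin1-/- (log2 inclusion ratio 3.93 ± 0.58 SE higher, adjusted p = 0.0174 in limma). The groups did not overlap, and the wild-type values rest on 6, 2 and 6 inclusion and 16, 15 and 12 skipping reads. The RPKM of the same symbol also rose (log2 change 1.56, adjusted p = 0.0296). A 57-base exon in Sorbs3, the gene of the adhesion adaptor vinexin, had no inclusion read in wild type and was included at 32.8%, 27.6% and 14.3% in Lpin1-/- (adjusted p = 0.0127). A 54-base stretch inside an exon of Slc39a14, a zinc and iron transporter, was included at 0%, 0% and 0.968% in wild type and at 20.7%, 26.0% and 18.8% in Lpin1-/- (adjusted p = 0.0107). Slc39a14 also rose in level, from a mean RPKM of 32.0 to 144 (adjusted p = 0.0475).

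The other rises were smaller. Cabin1, a regulator of calcineurin, went from 0% in all wild-type libraries to 16.4%, 11.8% and 9.44% at an annotated exon that is partly coding. Zfand6, a zinc finger protein, went from 1.48% to 2.65% in wild type up to 11.2% to 14.3%, and Zfp715, another zinc finger gene, from 0% to 8.46% to 13.6%. In Ddc, which encodes the decarboxylase that makes dopamine and serotonin, a 99-base exon that overlaps no annotated exon went from 0.282%, 0.478% and 0.0238% to 4.73%, 7.59% and 7.98% (log2 ratio 5.31 ± 0.94 SE higher, adjusted p = 0.0322). Cmip went from 0% to 5.90%, 1.74% and 9.16%. Inclusion reads in wild type were 0 in Sorbs3, Cabin1, Zfp715 and Cmip, where a fitted log2 ratio depends on the 0.5 added to each count and is not a bound. The same limit holds for the 149 of 293 falls with no skipping read in any wild-type library, among them Atp5g3 below.

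Of the 8 largest falls among called members with at least 5 counts of the rarer form and groups apart, 1 per gene, 4 were at stretches inside an annotated exon, 2 at stretches that overlapped one and 2 (Csrp3, 114 bases, and Fdxr, 167 bases) at exons with 1 annotated end. In Atp5g3, a subunit of the mitochondrial ATP synthase, a 36-base piece of the exon printed above was included at 100% in each wild-type library and at 7.73%, 28.8% and 16.6% in Lpin1-/- (adjusted p = 0.00784 in limma). Skipping reads were 0, 0 and 0 in wild type and 78, 34 and 82 in Lpin1-/-, and inclusion reads of the piece were 18, 18 and 26 against 10, 21 and 25. In Pcyt2, the rate-limiting enzyme of the pathway that makes phosphatidylethanolamine from ethanolamine, a 47-base piece went from 63.9%, 100% and 86.7% to 3.79%, 5.48% and 20.2% (adjusted p = 0.0217). Inclusion reads of that piece were 12, 14 and 22 in wild type and 5, 5 and 15 in Lpin1-/-. A longer exon on the same skipping junction was included at 99.9% in wild type and 96.2% in Lpin1-/- (means). In Igf1, the growth factor that liver secretes into blood, an 85-base piece went from 86.6%, 93.4% and 85.0% to 15.1%, 24.4% and 23.3% (adjusted p = 0.00998).

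In Apoa1, the main protein of high-density lipoprotein, a 68-base piece of the printed exon went from 62.2%, 52.9% and 53.6% to 3.21%, 5.56% and 3.76% (adjusted p = 0.00998). Its skipping reads were 7, 12 and 16 in wild type and 422, 348 and 486 in Lpin1-/-, without overlap. The RPKM of Apoa1 did not pass the test (log2 change -0.29, adjusted p = 0.68). Differences of -47.7 to -55.1 points were also found in Aup1, a lipid droplet protein, Csrp3, a muscle LIM protein, Orm1, an acute-phase glycoprotein, and Fdxr, the mitochondrial ferredoxin reductase. Fdxr went from 60.7%, 67.3% and 77.9% to 18.6%, 20.5% and 23.5% (adjusted p = 0.0299). Orm1 had 131 inclusion reads in the second-listed wild-type library against 18 and 27 in the other wild-type libraries, and its RPKM was 4010 in wild-type replicate 2 against 857 and 518, although the lists do not name that library.

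**Figure D3:**
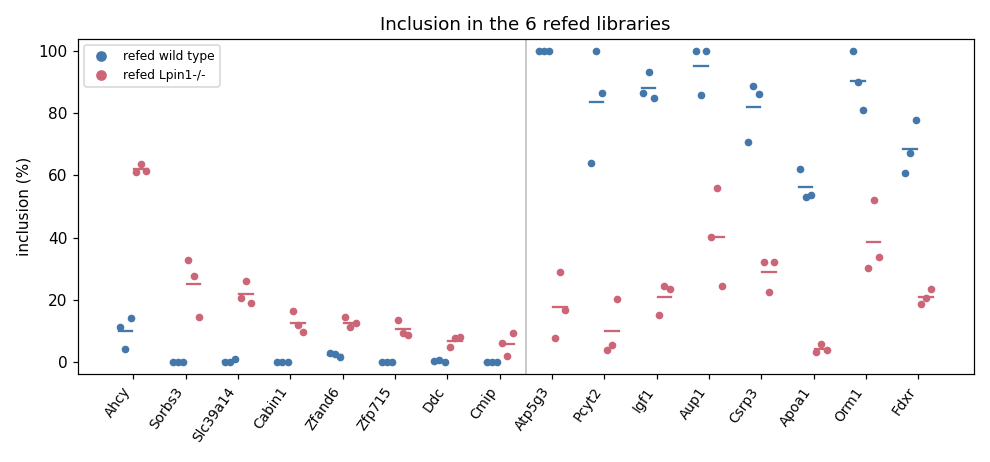
Inclusion (%) in each of the 6 refed libraries for the 8 members with the largest rise (left of the line) and the 8 with the largest fall among called members with at least 5 counts of the rarer form, 1 per gene. Points are libraries and short bars are group means, and the groups do not overlap at any of the 16, as the choice of members required.

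The size of a fall differed widely between pieces of an exon on the same junction. Skipping counts are the same for every event on a skipping junction. In Apoa1, 11 called members on the same junction had differences from -0.203 to -52.1 points, and their inclusion counts averaged from 32.3 to 687774 per library. For the whole annotated exon of Apoa1 inclusion was 99.99% in wild type and 99.8% in Lpin1-/-. The 9 called members on the Atp5g3 junction had differences from -0.511 to -82.3 points, and the 10 on a Cps1 junction from -0.166 to -0.899. Differences ran from -3.69 to -73.7 points on the Pcyt2 junction and from -1.25 to -55.1 on the Aup1 junction. On an Igf1 junction they ran from -46.8 to -67.4 points. Of the 157 junctions, 26 carried 4 or more called members and 90 carried a lone one.

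Skipping reads themselves separated the genotypes at many of these junctions. Pnpla2, the adipose triglyceride lipase, had 1, 0 and 0 skipping reads in wild type and 187, 111 and 77 in Lpin1-/-, next to a mean RPKM that rose from 38.6 to 167. Apoa2, another lipoprotein component, had 14, 24 and 41 against 411, 420 and 437, with little change in RPKM (means 10040 and 10792). Cyp2d9, a cytochrome P450 with close paralogs among which reads may be divided, had 0, 0 and 0 on another of its junctions against 114, 244 and 401, and Serpina1b, a protease inhibitor with near-identical copies, is uncertain for the same reason.

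The same junctions were looked up in the fasted libraries, which the refed comparison did not use. Of the 326 called members, 315 (96.6%) had a skipping junction that the fasted table lists, against 60.2% of all members. In 166 of the 326 (50.9%) all 3 junctions were those of a fasted event, against 23.8% of all members. Those 166 differ from a fasted event only in the outer end of a flanking exon. For the 138 of 157 junctions with a fasted event that passed the count minimum, the genotype difference had the same direction in 134 and was called in 99 (71.7%), all 99 in the same direction. In the fasted table as a whole 11.4% of events were called (7.82% lower and 3.56% higher), and 10.4% with 1 event per junction. Members not called in refed liver shared a direction with fasted liver at 63.3% of junctions, and 12.7% of them were called there. For junctions of the shared events called in refed liver the values were 95.1% and 67.5%. The shares compared here are not matched for counts. Called members had a median of 10.3 counts of the rarer form, against 0.833 in all members. Their lowest library total had a median of 1254.5 counts, against 280. The part of read counts in the agreement was not tested.

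The comparison by skipped exon gave similar shares. Of 181 called exons that the fasted table lists with other flanking ends, 178 had the same direction and 135 (74.6%) were called, where 12.4% of all fasted exons were, again not matched for counts. Among the 18 with a higher ratio 17 had the same direction and 15 were called, 14 of them in that direction. The lookup by junction was chosen after the data were seen. It took the fasted event with the most inclusion counts, so it can pair the junction with another exon, for falls as for rises.

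For named falls the fasted skipping reads differed by gene. Apoa1 had 15, 9 and 20 skipping reads in fasted wild type and 1542, 2120 and 556 in fasted Lpin1-/- (log2 ratio -6.16 ± 0.87 SE, adjusted p = 0.00119). That ratio is for a fasted event with 578619 to 861648 inclusion reads per library, and not for the 68-base piece. Igf1 had 0, 3 and 7 against 101, 65 and 149, and Pnpla2 2, 0 and 0 against 277, 446 and 206. Atp5g3 had 1, 0 and 2 against 313, 271 and 0, and did not pass the test (adjusted p = 0.144). Csrp3 had 50, 120 and 142 against 24, 521 and 642 (adjusted p = 0.1). Of the 8 named rises, Cabin1 and Ddc were called higher at their junction in fasted liver (log2 ratio 6.51 and 5.31, adjusted p = 0.000685 and 0.000863). Ahcy, Slc39a14, Zfand6 and Cmip did not pass the test there (log2 ratio 1.23, 0.92, 1.09 and 0.49, adjusted p = 0.308, 0.422, 0.295 and 0.746), and Sorbs3 and Zfp715 had no fasted event at the junction that could be tested. Only for Ahcy and Cabin1 was the fasted event at the same exon. At 4 junctions, in 3110053B16Rik, Denr, Gmppa and Kng1, the fasted direction was opposite and the fasted groups overlapped.

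**Figure D4:**
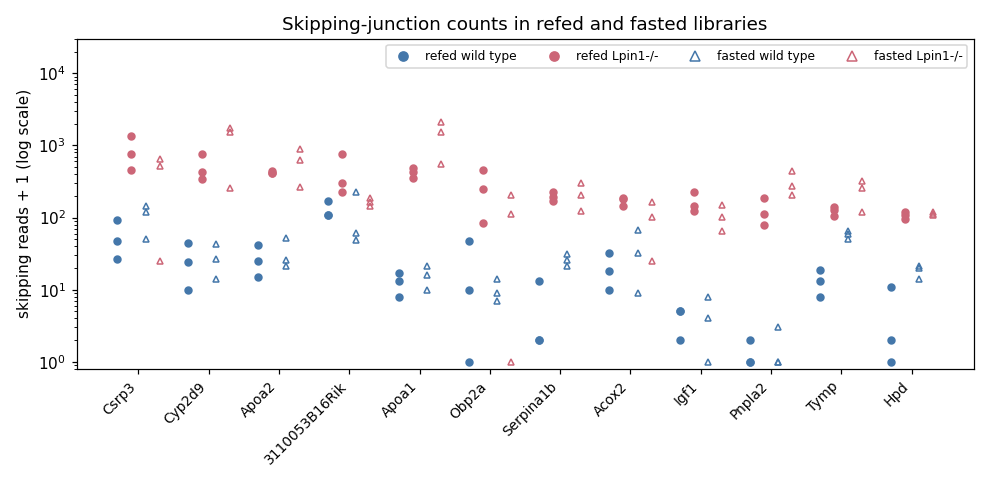
Skipping reads plus 1 (log scale) in each of the 12 libraries at 12 junctions of called members with lower inclusion, the 12 with the most skipping reads in refed Lpin1-/- liver among those reported here that are over 3 times the wild-type mean and listed in fasted liver, 1 per gene. Filled circles are refed and open triangles fasted libraries, and Apoa1 runs from 7 to 16 reads in refed wild type and from 348 to 486 in refed Lpin1-/-.

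**Figure D5:**
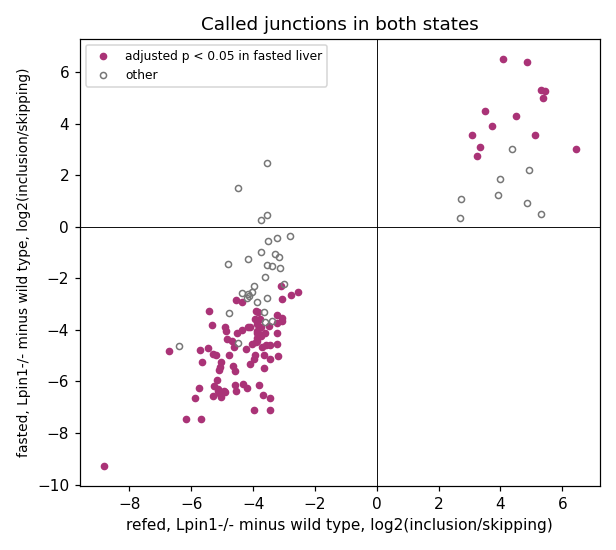
Difference in the log2 inclusion ratio, Lpin1-/- minus wild type, in refed (x axis) and fasted liver (y axis) for the 138 called junctions with a fasted event. Filled points are the 99 called in fasted liver, and 134 of the 138 points lie in the quadrants of equal sign.

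Secreted plasma proteins and amino acid enzymes held the most members among the gene lists. Of 1813 members in 46 genes of plasma proteins, 40 (2.21%) fell in 7 genes, Apoa1, Apoa2, C3, Hpx, Kng1, Rbp4 and Serpina1b, and 0 rose. Of 813 members in 29 genes of the urea cycle and amino acid catabolism, 20 (2.46%) fell, in Cps1, Gls2, Gpt and Hpd and 0 rose. The share over all events was 0.84% for falls and 0.149% for rises. Median log2 ratio differences were -0.31 and -0.10 in the 2 lists, against -0.18 over all members. Members of a list share junctions, so these counts are of events and not of independent changes.

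In phospholipid synthesis 4 of 184 members (2.17%) fell, in Pcyt2 and Gpam, the acyltransferase that starts glycerolipid synthesis. In cholesterol synthesis 2 of 74 (2.70%) had a lower ratio, both in Idi1, an isomerase of isoprenoid synthesis. Its skipping reads were 0, 0 and 0 in wild type and 1, 0 and 0 in Lpin1-/-, inclusion reads of the 2 members went from 627 to 1955 down to 27 to 113, and the mean RPKM went from 39.3 to 1.73 (adjusted p = 0.00926). In fatty acid synthesis 2 of 109 (1.83%) fell, both in Slc25a1, the mitochondrial citrate carrier. In endoplasmic reticulum chaperones 1 of 143 (0.699%) fell, in Pdia3. These shares stand beside 0.84% of all events, and 0 members of these lists rose. Among events listed in both tables, 4 of 147, 0 of 48, 0 of 71 and 1 of 80 were called in these lists, in the same order.

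Genes of splicing and RNA decay held 35 to 160 members a list, where 0.84% (the share of all events that fell) is at most a few members. In hnRNP and related regulators 1 of 160 members (0.625%) fell, in Hnrnpa1, and the quasi-binomial test called 6. In SR proteins (106 members), the U2 snRNP and U2AF (39), the ESRP2 targets that the study named (67) and nonsense-mediated decay genes (35), 0 members were called, with 14, 5, 14 and 1 at an unadjusted p under 0.05 and 2, 1, 0 and 0 called by the quasi-binomial test. Among all members 13.1% had an unadjusted p under 0.05 in limma, and the quasi-binomial test called 4.04%. The study took known ESRP2 targets from earlier work and named those with altered inclusion in its fasted Lpin1-/- livers. The naming used mice of the same study, so their direction is not taken as independent evidence. The study reported that feeding brought the splicing of these targets back to normal, and the members here need not be the events it assessed. Lsm14b, in that list, had inclusion of 47.0%, 65.6% and 55.1% in wild type and 42.4%, 30.8% and 36.9% in Lpin1-/-, and Vegfa, an angiogenic growth factor, 58.8%, 60.6% and 59.9% against 41.4%, 46.0% and 52.1%. Neither passed the test (adjusted p = 0.375 and 0.527), and in neither gene did the groups overlap. Pcbp2, a poly(C)-binding protein, had 47.2%, 51.3% and 49.7% against 43.5%, 39.7% and 42.5% at an annotated coding exon (adjusted p = 0.737).

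The 24 members taken for their counts from the 12 lists, 2 a list, had differences from -19.2 to 5.81 points. In limma 0 of them were called, 2 had an unadjusted p under 0.05, the quasi-binomial test called 7, and the groups did not overlap in 11. Among all members the quasi-binomial test called 4.04% and the groups did not overlap in 12.3%, and among the 7867 with at least 5 counts of the rarer form the shares were 15.2% and 33.7%. In Rnase4, a secreted ribonuclease, inclusion was 17.97%, 17.7% and 19.8% in wild type and 16.1%, 20.2% and 19.7% in Lpin1-/- (adjusted p = 0.994). In Cyp3a25, a drug-metabolizing cytochrome P450, it was 12.0%, 10.3% and 5.11% against 13.5%, 15.6% and 17.97%, without overlap of the groups (adjusted p = 0.485). A second Igf1 member, a 90-base exon with 1 annotated end, had 17.7%, 17.1% and 16.6% against 19.6%, 17.7% and 17.6% (adjusted p = 0.941). Lamp2, a lysosomal membrane protein, had 22.7%, 17.9% and 18.7% against 33.7%, 29.0% and 25.8% (adjusted p = 0.539). Among the well-counted members of the lists, Asl, which cleaves argininosuccinate in the urea cycle, had 95.5%, 96.0% and 94.6% against 89.5%, 90.4% and 89.9% (adjusted p = 0.334), while its RPKM rose (log2 change 2.05, adjusted p = 0.00611). Hmgcs1, in cholesterol synthesis, had 27.7%, 25.7% and 26.7% against 22.4%, 14.4% and 11.7% (adjusted p = 0.454), and its RPKM fell (log2 change -2.50, adjusted p = 0.00187).

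Of 6918 genes that host members and were tested on RPKM, 511 were called between refed genotypes (7.39%, against 6.67% of all genes tested), 210 higher and 301 lower in Lpin1-/-. Of the 142 host genes of called members, 16 (11.3%) were called, 8 in each direction, and their median log2 change was -0.15. With each library rescaled by its median ratio, 285 host genes were higher and 269 lower, so the balance of directions depended on scaling. Host genes of called members had a median RPKM of 63.7 against 11.6 for all host genes.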

How the data were processed

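The authors aligned reads with HISAT2 2.0.5 to GRCm38 (Ensembl release 84), counted genes with HTSeq 0.6.0 and ran rMATS on triplicates (version not given in the sources used here). The authors deposited RPKM for 22456 genes and, for SE events, lists of inclusion and skipping counts with effective lengths. Columns holding the authors' own p-values, FDR and inclusion differences, and 3 tables of their selected events or enrichment terms, were not used. The members and gene lists were chosen with earlier results of these data known, and some genes that the naming rules give are not reported here.

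Events were tested with limma 3.58.1 (R 4.3.3, variance trend) on log2 of inclusion over skipping counts, 0.5 added to each, and Benjamini-Hochberg adjustment over all events with at least 10 counts in every refed library. The fasted table was fitted likewise. RPKM was tested with limma on log2(RPKM + 1), mean at least 0.5, over 12 libraries. A count test with edgeR was planned but not run, because the counts are stored as lists. On simulated data the limma test recovered most large changes when many were present and fewer when few were, with more false calls than the threshold allows. Named genes were Lpin1, the 8 largest rises and 8 largest falls among called members with at least 5 counts of the rarer form and groups apart, 2 members per list and the 4 with the most counts of the rarer form. Same-numbered refed libraries deviated together in RPKM (r = 0.186, 0.297 and 0.162). The RPKM results given above are from the fit without pairs, and a fit with a replicate block was run as an alternative. P-values weigh a difference against the spread between mice, with 3 mice a group. Limma draws the spread of each event or gene toward a trend over all those tested. In RPKM the 4 groups share an estimate of the spread. Python 3.11.15 and pandas 2.3.3 were used for tables.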

Additional observations from a re-analysis of the deposited data

How the results depend on the processing

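The 326 called members became 690 with 1 added to each count, 700 with precision weights, 678 with at least 5 counts of the rarer form, 79 when the mean inclusion also had to differ by 0.1 and 1403 with a quasi-binomial test chosen after seeing the data. Over all events, 645 became 1333, 1374, 1365, 136 and 2875. Precision weights called 169 of the 326 and the quasi-binomial test 291, and all 326 kept their direction in both. With a library left out the members called ranged from 0 to 12 (3704 to 4446 at an unadjusted p under 0.05), all events called from 0 to 15 and host genes called on RPKM from 176 to 343. Comparing the skipped exon alone left 21394 members. With the replicate block, 360 host genes were called on RPKM in place of 511. No paired analysis was run for events because their lists carry no replicate numbers. The edgeR alternative was not run. None of the 16 called named events reversed in these fits, but 9 lost the call with precision weights, 2 when the mean inclusion also had to differ by 0.1, and 15 or 16 with a library left out. Among uncalled ones the Dgat2 log2 ratio changed sign to 0.016 with precision weights. With a library left out, the log2 ratio changed sign in Rnase4 -0.059 to 0.14, Srsf2 -0.23 to 0.22, Phf5a -0.074 to 0.53, Snrpa1 -0.24 to 0.22, Chpt1 -0.39 to 0.038, Dgat2 -0.32 to 0.16 and Upf3b -0.086 to 0.61 (lowest to highest), and the cause was not tested.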
